A study of Mus musculus with 4 samples.

Results

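Cholesterol handling in the mouse brain was followed through 33 listed genes, of which 31 were measured, among 18193 genes that the array named. They were chosen by gene symbol in the probe-to-gene table, and every probe set with that symbol was taken, 67 in all. The list holds 17 enzymes of synthesis, 8 genes of uptake and regulation, and 8 genes of efflux or turnover, of which 6 were measured. Levels of Nr1h2 and Soat1 were not analysed here, and these genes enter only the promoter search. Brain RNA was taken from male C57BL/6 mice, 8 to 9 weeks of age, from crosses of heterozygous animals. Of the 4 mice, 2 were wild-type (Bcas1 +/+) and 2 were Bcas1 knockout (-/-), and each had 1 array. Sample descriptions name the cerebrum. Bcas1 encodes a protein of myelinating oligodendrocytes, and the study asks how the brain's RNA differs without it. The sources used here do not give the disrupted part of the gene or which mice were littermates. Each gene is described by its brightest probe set over the 4 arrays, on the log2 scale, where a difference of 1 is a doubling, and by its other probe sets where they differ.

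The brain makes nearly all of its own cholesterol, since the sterol of plasma lipoproteins hardly crosses the blood-brain barrier. Most of it lies in myelin, and oligodendrocytes build it at a high rate while they wrap axons; astrocytes secrete it on apolipoprotein E particles that neurons take up. Synthesis runs from acetyl-CoA through mevalonate, squalene and lanosterol, and its genes are switched on together by SREBP transcription factors when sterols in the endoplasmic reticulum are low. Neurons remove surplus by turning cholesterol into an oxysterol that can leave the brain.

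None of the 31 measured genes passed the test between genotypes, and the measured differences were small. Of the 31 genes 0 had an adjusted p under 0.05 in limma, with an adjusted p of 1 for each of them. Over all probe sets 2 of 45037 were called, which is 0.00444%. At an unadjusted p under 0.05, limma gave Mvd and Srebf1, 2 of 31, where 2.75% of all genes, and 0.952% of the 8933 genes at least as bright as the dimmest member, reached that level. The unadjusted 95% intervals of all 31 differences lay between -0.297 and 0.465, so that the widest bounds were 1.38-fold higher and 1.23-fold lower in the knockout. A p above the threshold with 2 mice per group does not show that the genes were equal.

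The small differences leaned upward. The list was chosen with earlier results of these data known, so the lean is described here and was not tested. Of the 31 genes 22 had positive differences, 7 negative and 2 exactly 0 at the 2 decimals of the table, against 51.7% positive among all genes. Both knockout arrays lay above both wild-type arrays for 12 of the 31, or 38.7%, where 15.5% of all genes did so. One such gene lay below, Tm7sf2, or 3.23%, where 12.8% of all genes did so. Among the bright genes the shares were 15.1% above and 14.3% below, with 48.4% of differences positive. Over the 67 probe sets, 46 differences were positive, 19 negative and 2 exactly 0, and 48.1% of all probe sets were positive. Without the second knockout array, in which some nasal markers read high, 19 of the 31 differences were positive, against 42.7% of all genes. The median difference of the 31 genes was 0.040, and that of all genes was 0.0050.

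Bcas1 itself, the check of the labels, measured 12.17 and 12.21 in wild type against 11.05 and 10.75 in the knockout, with 0.742 as its limma adjusted p, and its 2 dimmer probe sets were higher in both knockout mice. Whether any of the 3 reads the disrupted part was not tested. The arrays had medians of 6.49 to 6.51. Neuronal markers averaged 13.10 to 13.13 in the 4 arrays and liver markers 5.18 to 5.38, as log2 levels of the probe sets chosen for each list. The second knockout array stood apart: 5 measured markers of nasal tissue averaged 7.11 there, against 4.49 to 4.84 in the other 3. The higher mean came from Obp1a, Bpifa1 and Cyp2g1, at 8.92, 8.33 and 7.12 there and 3.41 to 4.99 in the others. Omp read 6.56 there against 6.17 to 6.42, and Reg3g 4.62 against 4.18 to 4.32. Pituitary markers averaged 5.97 and 6.05 in wild type against 6.07 and 6.33 in the knockout, 5 of 6 positive. On its brightest probe set Gh, growth hormone, read 6.44 and 6.55 against 6.88 and 7.53, differing by 0.71. The dimmer Gh probe sets differed by 1.775, 2.01 and 1.655, with both knockout arrays higher and the second the highest. Prl, Pomc, Cga, Tshb and Lhb gave -0.060 to 0.245 on their brightest probe sets. Blood cell markers averaged 5.88 and 5.70 in wild type against 6.11 and 6.57 in the knockout, 6 of 6 with positive differences. The list was split. S100a8, S100a9, Ngp and Camp differed by 1.17, 1.295, 0.50 and 0.23, while Alas2 and Hba-a1 overlapped at 0.075 and 0.010. The 6 measured markers of endothelium and mural cells averaged 8.15 and 8.14 in wild type against 8.26 and 8.29 in the knockout. On their brightest probe sets 6 of 6 were positive. Pdgfrb and Acta2 gave 0.280 and 0.235, while Pecam1, Tek, Cldn5 and Flt1 gave 0.025 to 0.085. The dimmer Flt1 probe sets were negative, at -0.165, -0.060 and -0.240. Those of Acta2 gave -0.085 and 0.000 with the groups overlapping, and that of Pdgfrb gave 0.255. In whole-tissue RNA, fewer cells of a type and less RNA per cell cannot be told apart.

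The synthesis genes shared a promoter feature that the choice of genes did not use. NF-Y, a factor that works beside SREBP at sterol-regulated promoters, binds the core letters CCAAT, searched here with the reverse complement ATTGG. RefSeq windows of GRCm38.p6, from 250 bases before to 50 after a transcription start, were held for 27 of the 33 genes, and a gene was counted if any of its starts had a match. All 14 synthesis genes with a window held the core, as did 5 of 7 genes of uptake and regulation and 2 of 6 of efflux or turnover. These 6 are not the 6 measured genes: they include Nr1h2 and Soat1 and lack Clu and Abcg1. The 2 with the core were Soat1, which has no level here, and Cyp46a1. The core was held by 41.1% of the 27025 genes with windows, and of the 7288 genes with a window that were as bright on the array as the dimmest member 42.9% did. An SRE-like motif, TCACNCCA or TGGNGTGA, a form of the site that SREBP binds, was found for Hmgcs1, Msmo1, Srebf2 and Apoe, 4 of 27, and for 4.97% of genes with windows. In these genes no match of one motif overlapped a match of the other, and a match describes letters and shows no binding.

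The first 3 windows below hold both motifs, and that of Mvd belongs to the synthesis gene with the largest difference. Each is written 5′ to 3′ on the gene's strand with the motif letters in capitals: Hmgcs1 at chr13:119690101-119690400 (plus strand), Msmo1 at chr8:64733529-64733828 (minus strand), Srebf2 at chr15:82147019-82147318 (plus strand) and Mvd at chr8:122443373-122443672 (minus strand).
Hmgcs1: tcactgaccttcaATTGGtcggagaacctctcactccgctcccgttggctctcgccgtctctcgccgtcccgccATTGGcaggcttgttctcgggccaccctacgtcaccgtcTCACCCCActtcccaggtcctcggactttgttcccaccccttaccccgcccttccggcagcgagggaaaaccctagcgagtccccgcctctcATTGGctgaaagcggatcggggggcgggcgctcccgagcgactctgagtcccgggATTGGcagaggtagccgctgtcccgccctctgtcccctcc
Msmo1: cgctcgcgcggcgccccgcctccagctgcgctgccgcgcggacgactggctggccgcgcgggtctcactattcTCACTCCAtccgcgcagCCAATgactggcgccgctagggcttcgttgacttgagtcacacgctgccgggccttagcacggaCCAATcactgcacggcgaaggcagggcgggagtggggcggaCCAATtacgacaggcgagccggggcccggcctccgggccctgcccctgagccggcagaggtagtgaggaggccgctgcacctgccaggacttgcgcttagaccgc
Srebf2: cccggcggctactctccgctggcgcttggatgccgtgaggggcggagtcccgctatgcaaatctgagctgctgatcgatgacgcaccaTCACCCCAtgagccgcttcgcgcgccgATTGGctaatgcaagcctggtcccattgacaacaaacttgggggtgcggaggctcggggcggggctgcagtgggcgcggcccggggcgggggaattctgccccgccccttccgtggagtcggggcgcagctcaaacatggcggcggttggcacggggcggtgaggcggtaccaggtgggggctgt
Mvd: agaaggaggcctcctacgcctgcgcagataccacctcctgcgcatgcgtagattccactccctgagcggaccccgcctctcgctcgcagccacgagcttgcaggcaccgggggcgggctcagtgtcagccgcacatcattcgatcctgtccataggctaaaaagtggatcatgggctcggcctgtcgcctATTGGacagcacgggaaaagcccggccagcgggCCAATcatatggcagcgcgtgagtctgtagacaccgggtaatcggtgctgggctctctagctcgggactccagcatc
In Hmgcs1 the SRE-like letters begin 137 bases before the start, among 4 NF-Y cores. In Msmo1 they begin 177 bases before it and in Srebf2 162 bases before it. The Mvd window holds 2 NF-Y cores, which begin 60 and 27 bases before the start, and no SRE-like letters. The 20 measured genes with the core had a median difference of 0.035 with 13 positive, and the 5 with a window and without it, Scap, Lrp1, Apoe, Apod and Abca1, had 0.070 with 3 positive. With the mean of all probe sets of a gene these medians were 0.042 and -0.013, so their order depended on the probe sets used.

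**Figure D1:**
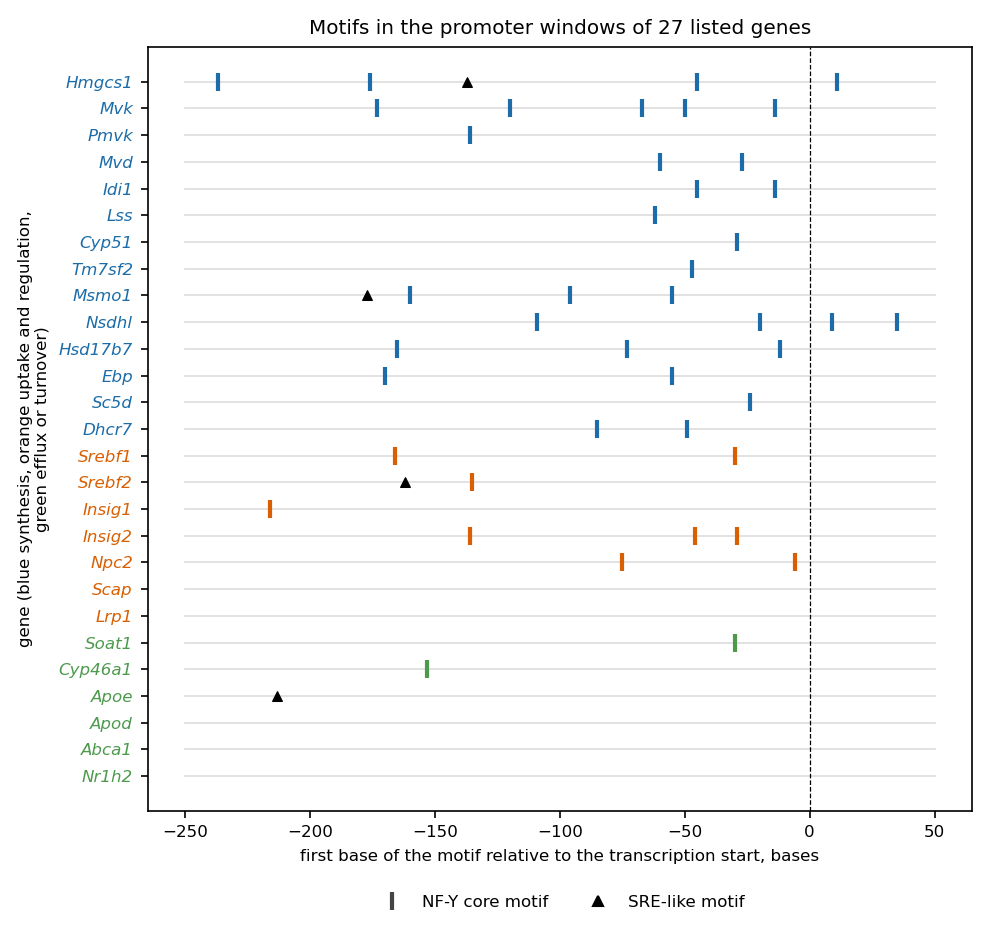
Position of each NF-Y core motif (bars) and SRE-like motif (triangles) relative to the transcription start, in bases, for the 27 listed genes with a RefSeq window, coloured by class. All 14 synthesis genes carry at least 1 bar, while Scap, Lrp1, Apoe, Apod, Abca1 and Nr1h2 carry none.

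Among the synthesis enzymes 13 of 17 differences were positive, 3 negative (Pmvk, Tm7sf2 and Ebp) and 1 exactly 0 (Cyp51), with a median of 0.040. Both knockout arrays were the higher for 8 of 17: Fdft1, Fdps, Hsd17b7, Idi1, Msmo1, Mvd, Nsdhl and Sc5d. Among all genes both knockout arrays were the higher for 15.5% and the lower for 12.8%. In the mevalonate stage Mvd, which removes the carboxyl group to give isopentenyl pyrophosphate, measured 7.69 and 7.54 in wild type against 7.85 and 7.87 in the knockout. That is a difference of 0.25 (SE 0.084), or 1.19-fold, with an unadjusted p of 0.036 and, in limma, an adjusted p of 1. The groups did not overlap on this probe set. It ends in _s_at, the maker's mark for probes shared by several transcripts, and the second Mvd probe set measured 7.50 and 7.47 in wild type against 7.44 and 7.51 in the knockout, differing by -0.010 with the groups overlapping. The Mvd difference thus rests on 1 of 2 probe sets.

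Upstream of Mvd, Hmgcs1, which condenses acetoacetyl-CoA and acetyl-CoA to HMG-CoA, measured 12.49 and 12.40 in wild type against 12.56 and 12.40 in the knockout, differing by 0.035 (SE 0.091). The second knockout mouse equalled the lower wild-type mouse. Its 5 probe sets ranged from -0.025 to 0.13, and 1 of them, at 12.38 and 12.30 against 12.50 and 12.43, had separate groups. Mvk, the first kinase on mevalonate, measured 7.75 and 7.83 in wild type against 7.85 and 7.80 in the knockout, and Pmvk, the kinase after it, 9.22 in both wild-type mice against 9.11 and 9.27 in the knockout. Both overlapped.

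Downstream of Mvd, Idi1, the isomerase that makes dimethylallyl pyrophosphate, measured 10.68 and 10.69 in wild type against 10.79 and 10.73 in the knockout. The difference was 0.075 (SE 0.071), and the groups were apart by 0.04 at their nearest. On the dimmer Idi1 probe set the 2 knockout mice were 9.51 and 8.91, above and below the wild-type mice at 9.02 and 9.09. Fdps, which joins these units to farnesyl pyrophosphate, the branch point to other isoprenoids, measured 9.93 and 9.97 in wild type against 10.02 and 10.00 in the knockout.

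Of the enzymes that make and close squalene, Fdft1, squalene synthase, had positive differences on 4 of 4 probe sets. The brightest measured 11.10 and 10.99 in wild type against 11.13 and 11.24 in the knockout, differing by 0.14 (SE 0.085). The 3 others gave 0.14, 0.11 and 0.0050, and the one at 10.05 and 9.94 against 10.12 and 10.14 is bright and also had separate groups. Sqle, squalene epoxidase, overlapped at 10.30 and 10.26 in wild type against 10.28 and 10.33 in the knockout. On the brightest probe sets Lss, which cyclises squalene epoxide to lanosterol, had the widest gap between knockout mice, at 8.65 and 8.36. Its wild-type mice measured 8.55 and 8.38. The dimmer Lss probe sets had separate groups in opposite directions. One measured 7.37 in both wild-type mice against 7.52 and 7.43 in the knockout, and the other 5.33 in both against 5.24 and 5.26.

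The steps from lanosterol to cholesterol were mixed. Cyp51, the lanosterol demethylase, was level at 9.62 and 9.64 in wild type and 9.63 in both knockout mice. Msmo1, a sterol methyl oxidase, measured 10.73 and 10.70 in wild type against 10.94 and 10.77 in the knockout, differing by 0.14 (SE 0.088). Its dim second probe set gave 0.20. Nsdhl and Hsd17b7, the dehydrogenase and reductase that follow Msmo1, differed by 0.055 (SE 0.072) and 0.13 (SE 0.076), both with separate groups. Hsd17b7 measured 9.12 and 9.02 in wild type against 9.20 and 9.19 in the knockout on a probe set ending in _x_at, the mark for probes that may also bind unrelated sequences. On its next probe set the level was 8.43 in both wild-type mice against 8.44 and 8.41 in the knockout.

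On the brightest probe sets Tm7sf2, a sterol reductase, was the single member with both knockout mice below both wild-type mice. It measured 8.22 and 8.18 in wild type against 8.12 and 8.17 in the knockout, differing by -0.055 (SE 0.071). The nearest pair was 0.01 apart, the smallest step of the table. Ebp, the sterol isomerase, measured 9.27 and 9.31 in wild type against 9.15 and 9.33 in the knockout, and its knockout mice lay on either side of the wild-type pair. Sc5d, the desaturase, was separate but nearly level, at 9.75 and 9.76 against 9.78 and 9.77. Dhcr7, which makes cholesterol in the last step of one branch, measured 8.66 and 8.69 in wild type against 8.83 and 8.65 in the knockout, high in the first knockout mouse alone.

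**Figure D2:**
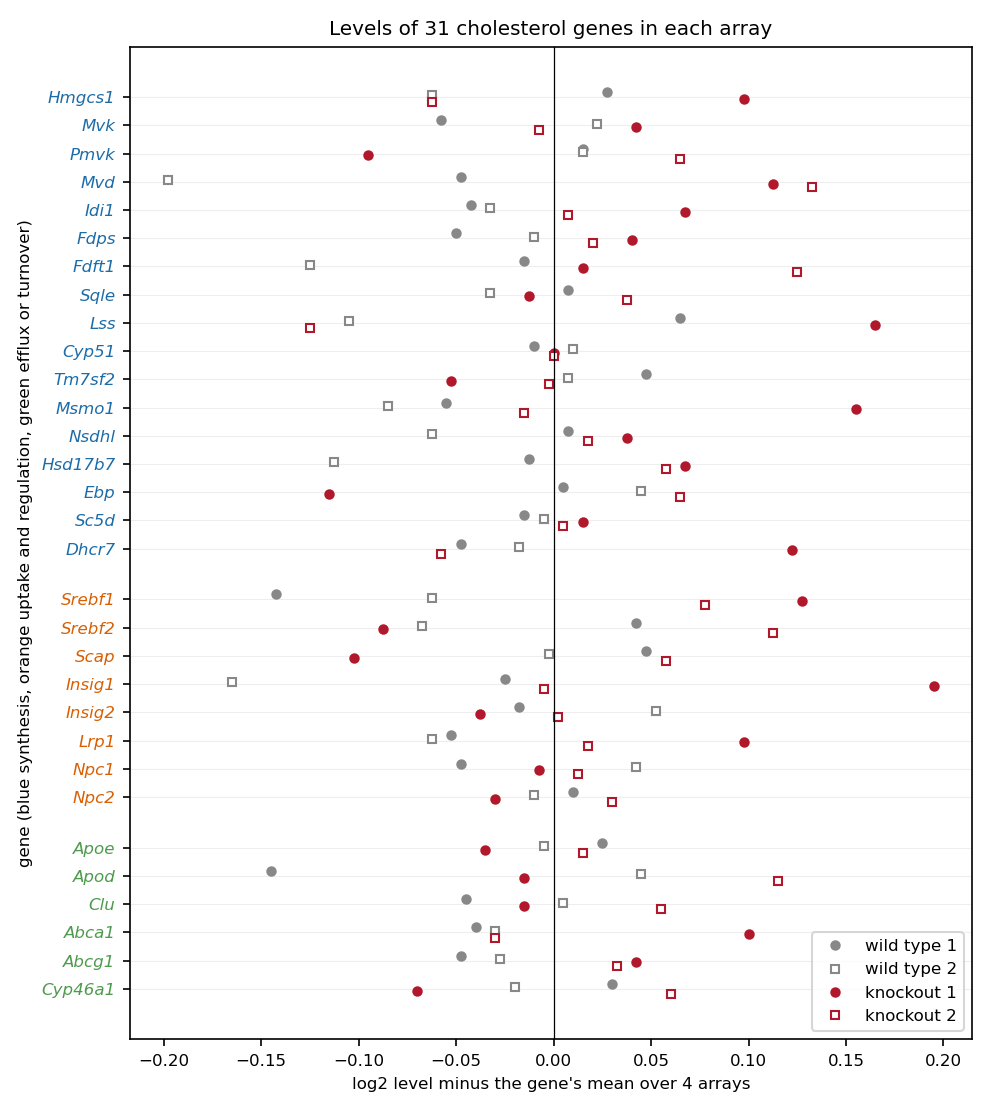
Log2 level of each of the 31 genes in each array minus that gene's mean over the 4 arrays, on the brightest probe set, with wild type in grey, knockout in red, first mice as filled circles and second mice as open squares. Red symbols lie right of both grey ones for 12 genes, and the first knockout mouse is the highest array for 15 of the 31.

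Of the 2 SREBP genes, 1 had separate groups. Srebf1, the SREBP gene tied mainly to fatty acid synthesis, measured 9.10 and 9.18 in wild type against 9.37 and 9.32 in the knockout. The groups were well apart, and the difference was 0.21 (SE 0.075), or 1.15-fold, with an unadjusted p of 0.043 and an adjusted p of 1 in limma. It has 1 probe set, so no second reading was at hand. Srebf2, the SREBP gene tied mainly to cholesterol synthesis, measured 8.67 and 8.56 in wild type against 8.54 and 8.74 in the knockout, with the knockout mice at both ends of the range, and both of its probe sets gave 0.025. Scap, which carries SREBP to the Golgi for cleavage, gave 10.17 and 10.12 in wild type against 10.02 and 10.18 in the knockout, low in the first knockout mouse alone.

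Insig1 and Insig2 hold the SREBP carrier back in the endoplasmic reticulum when sterols are plentiful, and Insig1 is itself an SREBP target. Insig1 measured 10.02 and 9.88 in wild type against 10.24 and 10.04 in the knockout. The difference was 0.19 (SE 0.10), 1.14-fold, with unadjusted and adjusted p of 0.13 and 1 in limma; the groups were 0.02 apart at their nearest. Insig2 measured 9.57 and 9.64 in wild type against 9.55 and 9.59 in the knockout, and its 3 probe sets lay between -0.035 and 0.015.

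Of the uptake genes, Lrp1, a large endocytic receptor for apolipoprotein E, measured 9.67 and 9.66 in wild type against 9.82 and 9.74 in the knockout. The difference was 0.12 (SE 0.073), while a dim second probe set gave -0.12 (SE 0.16) with the groups overlapping. Npc1 and Npc2 pass cholesterol out of lysosomes, and both were level: Npc1 was at 8.72 and 8.81 in wild type against 8.76 and 8.78 in the knockout. Npc2 was at 11.04 and 11.02 in wild type against 11.00 and 11.06 in the knockout. The dimmest of its 4 probe sets gave -0.22, with both knockout mice below both wild-type mice. For the 8 genes of uptake and regulation the median difference was 0.015, with 5 positive, 2 negative and 1 exactly 0. Without the second knockout array, in which some nasal markers read high, the median was -0.018 with 3 of 8 positive. Over all genes the median was then -0.015 with 42.7% positive. Without the first the class median was 0.055 with 7 of 8 positive, beside 0.030 over all genes with 60.1% positive. The sign of the class median thus turned with 1 array as that of all genes did, and leaving out a wild-type array gave 0.045 (the first) or 0.025 (the second).

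**Figure D3:**
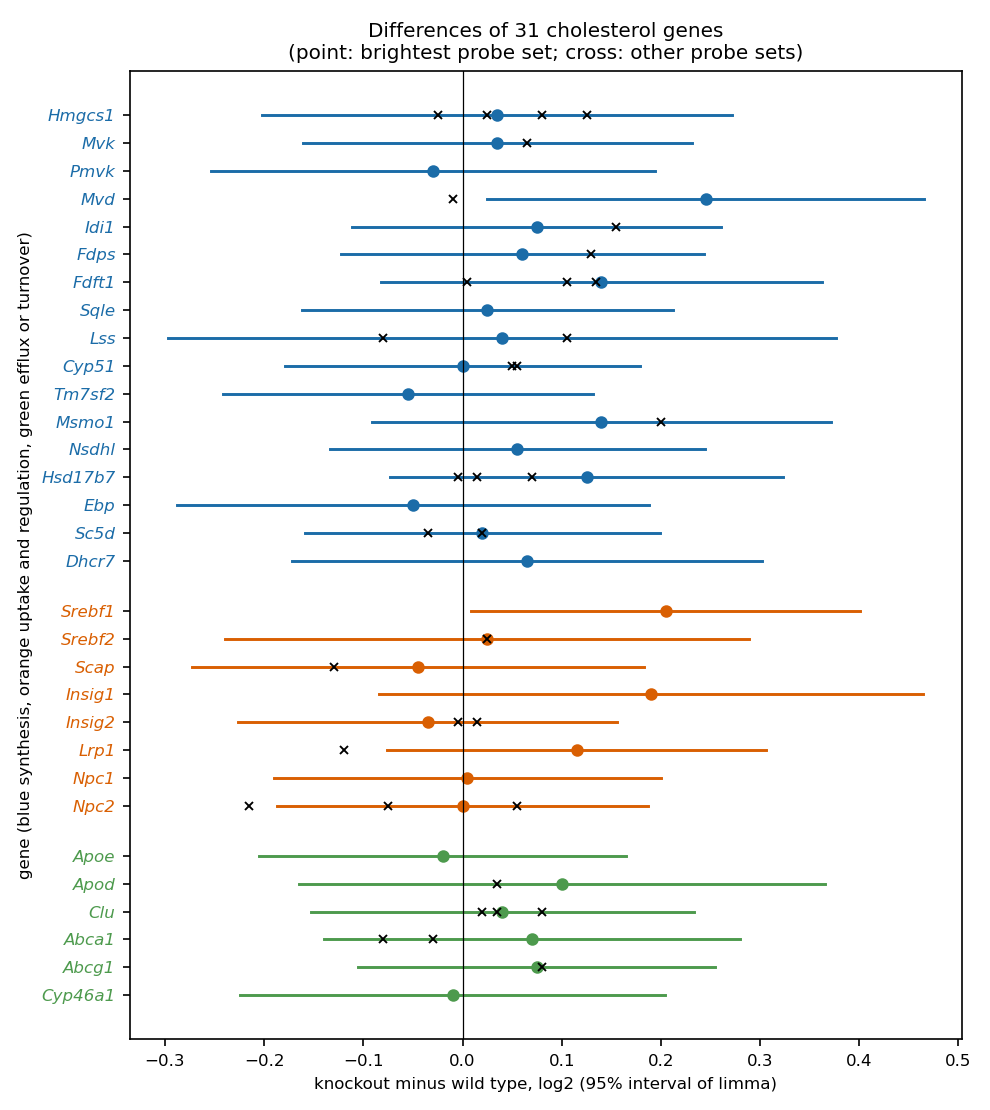
Knockout minus wild type on the log2 scale for the brightest probe set of each gene (points) with the 95% interval of limma (lines, not adjusted for the number of genes), and the other probe sets of the gene as crosses. Only the lines of Mvd and Srebf1 clear 0, and the second Mvd probe set lies at -0.010.

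The carriers and exporters differed little. Apoe, the main lipoprotein protein of the brain, measured 13.13 and 13.10 in wild type against 13.07 and 13.12 in the knockout, differing by -0.020 (SE 0.071), and its 95% interval ran from -0.205 to 0.165. Apod, a lipocalin of glial cells, measured 12.03 and 12.22 in wild type against 12.16 and 12.29 in the knockout, with the mice numbered 2 the higher in both groups. Clu, the apolipoprotein clusterin, lay between 13.14 and 13.24 in all arrays, and its 4 probe sets gave 0.020 to 0.080.

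Abca1 and Abcg1 export cholesterol to lipoproteins. Abca1 measured 10.50 and 10.51 in wild type against 10.64 and 10.51 in the knockout, so that its difference of 0.070 (SE 0.080) came from the first knockout mouse; both dim probe sets gave negative values, -0.080 and -0.030. Abcg1 measured 10.14 and 10.16 in wild type against 10.23 and 10.22 in the knockout, and its 2 probe sets gave 0.075 and 0.080. It was the one gene of this class with separate groups, where 15.5% of all genes lay apart upward. Cyp46a1, the neuronal hydroxylase that makes the exported oxysterol, measured 10.17 and 10.12 in wild type against 10.07 and 10.20 in the knockout, differing by -0.010 (SE 0.082) with full overlap. For the 6 measured genes of efflux or turnover the median difference was 0.055, with 4 positive and 2 negative. Leaving out the second knockout array gave 0.020, beside -0.015 over all genes, and leaving out the first wild-type array gave 0.015, beside 0.000. Without the first knockout array the class median was 0.0625, beside 0.030 over all genes. Without the second wild-type array it was 0.070, beside 0.010.

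The 3 classes had median differences close to each other, 0.040 for synthesis, 0.015 for uptake and regulation and 0.055 for efflux or turnover. Over the 31 genes the median gap between 2 mice of a group was 0.050 in wild type and 0.060 in the knockout for a single gene, and the difference between the classes was not tested. The synthesis median was 0.070 without the second knockout array, 0.045 without the first, and 0.025 without the second wild-type array. Of the 20 genes with more than 1 probe set, 9 had probe sets of both signs, among them Hmgcs1, Mvd, Lss, Hsd17b7, Sc5d, Insig2, Lrp1, Npc2 and Abca1. In the other 11 no 2 probe sets opposed each other, as in Fdft1, Msmo1, Clu and Abcg1.

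The first knockout mouse was the highest of the 4 arrays for 15 of the 31 genes, and for 10 of the 17 synthesis genes. Over the 17049 genes with a single highest array it was the highest for 20.3%, and the second knockout mouse was the highest for 40.2%. The median synthesis gene lay 0.040 above its 4-array mean in the first knockout mouse, while the median of all genes there was -0.020. In the second knockout mouse these medians were 0.0075 and 0.028. Genes high in the first knockout mouse and lower in the second included Lss, Insig1, Dhcr7, Msmo1 and Hmgcs1, with the first minus the second knockout mouse at 0.29, 0.20, 0.18, 0.17 and 0.16. Scap, Srebf2, Ebp and Pmvk ran the other way, at -0.16, -0.20, -0.18 and -0.16. The list thus did not vary as 1 block between mice of the same genotype.

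Oligodendrocyte and astrocyte markers had their highest mean in the same mouse. The 7 measured markers of mature oligodendrocytes averaged 11.56 and 11.61 in wild type against 11.71 and 11.57 in the knockout, 6 of 7 with positive differences. The log2 of their summed linear levels was 15.46 to 15.48 in wild type and 15.43 to 15.53 in the knockout, and the dimmest of them averaged 9.46. The 7 astrocyte markers averaged 11.73 and 11.78 in wild type against 11.85 and 11.77 in the knockout, 4 of 7 positive. Their log2 sum was 15.34 to 15.36 in wild type and 15.31 to 15.38 in the knockout. Gfap, the dimmest of them, gave 0.285 on its brightest probe set, while the other astrocyte markers gave -0.030 to 0.085. The part of either cell type in the synthesis levels was not tested.

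**Figure D4:**
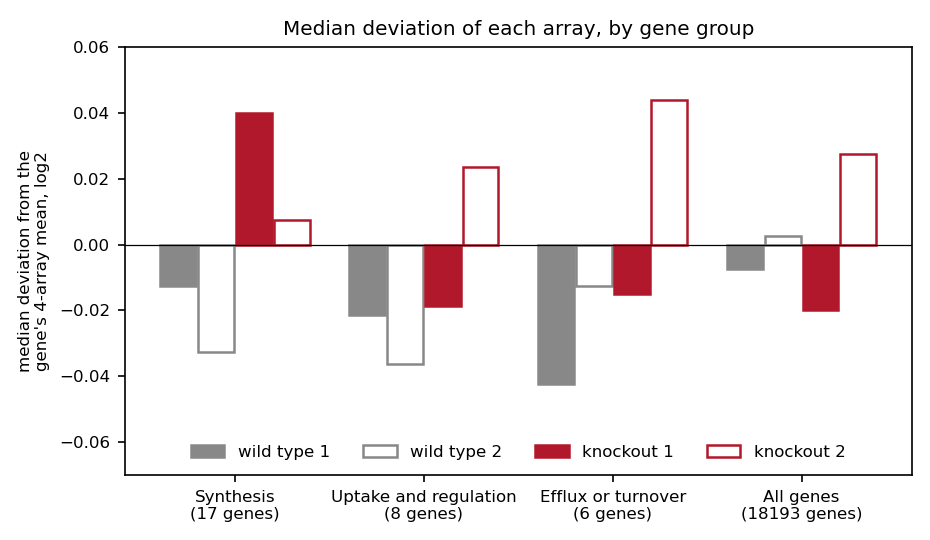
Median over genes of the log2 deviation from each gene's 4-array mean, for each array (bars; wild type grey, knockout red, second mice open), in the 3 classes and over all 18193 genes. Synthesis is highest in the first knockout mouse at 0.040, where all genes have a median of -0.020.

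A further 68 measured genes of the same pathways, from 73 listed symbols, gave 40 positive and 27 negative differences and a median of 0.015. Of them 0 had an adjusted p under 0.05 in limma and 0 an unadjusted p under 0.05, and 12 lay apart upward (17.6%, against 15.5% of all genes) and 6 downward (8.82%, against 12.8%). Genes of precursor supply and the isoprenoid branches had a median of -0.0075 over 10 measured, with Fntb, a subunit of protein farnesyltransferase, at 7.86 in both wild-type mice against 7.94 and 8.13 in the knockout. Further sterol enzymes and regulators had a median of 0.015 over 9, with Faf2, which helps extract ubiquitinated proteins from the endoplasmic reticulum, at 9.08 and 9.11 in wild type against 8.90 and 9.01 in the knockout.

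Lipoprotein receptors and carriers had a median of 0.030 over 12. In that list Lrp8, a receptor for apolipoprotein E and reelin, measured 9.15 and 9.18 in wild type against 9.07 and 9.08 in the knockout, while its dimmer probe sets gave -0.015 and 0.21. Lrpap1, a chaperone of this receptor family, measured 11.60 and 11.64 in wild type against 11.51 and 11.52 in the knockout. Lpl, lipoprotein lipase, measured 9.27 and 9.26 in wild type against 9.34 and 9.35 in the knockout. Of this list 8 of 12 differences were positive. On their brightest probe sets 2 genes lay apart upward (Apoo and Lpl) and 2 downward (Lrp8 and Lrpap1). Among all genes 15.5% lay apart upward and 12.8% downward. Intracellular transport and ester genes had a median of 0.0050 over 13, with Stard4, a sterol carrier and SREBP target, at 9.01 and 8.97 in wild type against 9.09 and 9.10 in the knockout. Efflux and oxysterol genes had a median of 0.020 over 10, with Cyp7b1, an oxysterol hydroxylase, at 9.05 in both wild-type mice against 9.11 and 9.18 in the knockout.

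SREBP targets of fatty acid synthesis had a median of 0.028 over 14, with 9 positive, beside the difference of 0.21 of Srebf1. Fasn, fatty acid synthase, measured 10.87 and 10.77 in wild type against 10.68 and 10.74 in the knockout, so that it lay below wild type in both knockout mice. Fads2, a fatty acid desaturase, measured 9.86 and 9.85 in wild type and 9.94 in both knockout mice, and Scd1, which desaturates stearate, 11.72 and 11.73 against 11.75 and 11.86. The fatty acid genes thus lay on both sides of wild type.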

How the data were processed

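The authors deposited 1 table of log2 levels, made with RMA per the submitters' processing notes, with a row per probe set and a column per mouse, rounded to 2 decimals. RMA corrects background, normalizes between arrays and summarises the probes of a set; the sources used here name neither its software nor its settings. Per the labels' protocols, 100 ng of total RNA was labelled with a 3' IVT kit for 1-colour Affymetrix arrays. Scanner files were not used here, and precision is limited by having 4 arrays.

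Of 45101 rows 64 control probe sets were left out. The platform annotation named 1 gene for 34945 of the rest. Knockout and wild type were compared by two-sided tests of limma 3.58.1 (lmFit, eBayes) in R 4.3.3, adjusted by Benjamini-Hochberg across 45037 probe sets and 2 residual plus 2.74 prior degrees of freedom; the script was tested on simulated data. An exact permutation test of 2 against 2 cannot go below 0.333. Alternatives were 2 scalings, another variance model, a filter on dim probe sets, a replicate block, other choices of probe set and leaving out each array. Named genes were all members, and from each further list some of the 4 with the smallest p. The members and lists were chosen with earlier results of these data known. Promoter windows and motifs came from the RefSeq table of GRCm38.p6; the motifs were chosen after the values were seen. Some genes of the pathway are not reported here.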

Additional observations from a re-analysis of the deposited data

How the results depend on the processing

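The number of cholesterol genes past the threshold was 0 under each alternative that kept all 4 arrays. The lowest adjusted p that limma gave there was 0.847, with the replicate block. Bcas1 itself, at 2.45-fold, had an adjusted p of 0.742 in the main limma fit, so smaller differences could hardly pass. The counts of 0 therefore do not show that the genes were equal. Over all probe sets the count of 2 became 1 without dim probe sets, 10 with an intensity trend and robust variance, and 0 without any 1 array. Nothing in the labels says that a mouse number marks a shared litter or day. With the replicate number as a block the count was 0. Every number has 1 array in each genotype, so the block could not change the differences, and it left fewer residual degrees of freedom. Same-numbered arrays deviated from their group means with a correlation of 0.241. Leaving out 1 array moved the median of synthesis between 0.025 and 0.070, of uptake and regulation between -0.018 and 0.055, and of efflux or turnover between 0.015 and 0.070. With the mean of all probe sets of a gene, uptake and regulation had 0.0013 with 4 of 8 positive, and efflux or turnover 0.017. That setting turned Lrp1 to -0.0025 and Abca1 to -0.013. Probe sets not ending in _s_at or _x_at, a choice made after seeing the data, turned Mvd to -0.010 and Hsd17b7 to -0.0050, and Hmgcs1 and Clu took their place among the 12 genes apart upward; 20 of 31 differences were then positive. The cause of these changes was not tested. Without 1 array 18 genes did not change sign, Cyp51 and Npc2, at 0 with all arrays, took both signs, and 11 turned: Apoe (-0.045 to 0.0050), Cyp46a1 (-0.075 to 0.055), Dhcr7 (-0.025 to 0.16), Ebp (-0.14 to 0.040), Hmgcs1 (-0.045 to 0.12), Lss (-0.11 to 0.19), Mvk (-0.0050 to 0.075), Npc1 (-0.040 to 0.050), Pmvk (-0.11 to 0.050), Scap (-0.13 to 0.035) and Srebf2 (-0.075 to 0.13). The number of positive differences was 19 to 25 of 31 without 1 array. Differences near 0.01 are at the rounding of the table.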
